A study of Mus musculus with 18 samples.

Results

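This report describes 8 genes for non-receptor (cytoplasmic) tyrosine kinases, Lyn, Fyn, Fgr, Matk, Syk, Bmx, Btk and Tec, in RNA sequencing of sorted mouse tracheal cells. They are 8 of the 26327 genes in the deposited count table. The 8 were selected on their levels in these same libraries, so those levels, and the differences in level between the cell groups, are given as a description with no test. A further 22 cytoplasmic tyrosine kinases, and lists of receptors, substrates and regulators that work beside the 8, were tested. These lists too were chosen with earlier results of these data known, so their shares and p-values describe these libraries and are no independent support.

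The cells came from naive mice of 1 strain, on the B6.Cg background with the transgene Tg(RP23-268L19-EGFP)2Mik. All of these mice, the ones that gave the EpCAM and CD45 libraries included, carry this BAC, in which Chat, the choline acetyltransferase gene, drives eGFP. Brush cells, the chemosensory tuft cells of the airway, were sorted as CD45-, EpCAM+ and eGFP+ (7 libraries). EpCAM epithelial cells were sorted as CD45- and EpCAM+ (7 libraries), a gate that as worded does not leave out eGFP+ cells, and CD45+ hematopoietic cells were sorted separately (4 libraries). The labels give no age. Separate animals are not stated for the libraries of a group, and every p-value therefore reflects only how these samples spread, which could be technical.

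Src family kinases (Lyn, Fyn, Fgr and others) sit at the inner face of the plasma membrane and phosphorylate tyrosines in the tails of receptors and their signalling chains. Syk binds such doubly phosphorylated tails, and Tec family kinases (Btk, Tec, Bmx) are recruited next and act on phospholipase C gamma. Csk and Matk (also called Chk) hold the Src family in check by phosphorylating its inhibitory tail tyrosine. These kinases are best known from white blood cells, and Bmx from endothelium and epithelium.

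Brush libraries held 838328 to 6031711 counts each, EpCAM ones 2442601 to 6087184 and CD45 ones 371652 to 7438791. Of these counts, ribosomal RNA genes took 22.65 to 60.9% in brush, 8.76 to 31.35% in EpCAM and 18.85 to 38.29% in CD45 libraries. Brush 4, EpCAM 5 and CD45 1 stood apart, with a median Spearman correlation to the other libraries of their group of 0.849, 0.81 and 0.759, against 0.895 to 0.951 for the other 15. Brush 4 and CD45 1 also had the lowest totals. The labelled cell types carried their markers. The 10 brush cell markers summed to 10620 counts per 1000000 (CPM, scaled by edgeR's TMM factors) in brush libraries, 17.6 CPM in EpCAM libraries and 154 CPM in CD45 libraries. Of the CD45 sum, Alox5 made up 82.8 CPM, Ltc4s 39.3 CPM and Chat 28.9 CPM. All 8 pan-leukocyte markers were detected in CD45 libraries, summing to 6906 CPM, against 137 CPM in brush and 25.3 CPM in EpCAM libraries. Basal cell markers summed to 5344 CPM in EpCAM, 108 CPM in brush and 26.6 CPM in CD45 libraries. Club and goblet cell markers summed to 68358 CPM in EpCAM, 1474 CPM in brush and 590 CPM in CD45 libraries.

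Matk and Bmx were high in brush libraries and low in both other groups. Lyn was high in brush and CD45 libraries and lower in EpCAM libraries. Tec was intermediate in brush libraries, and Fyn, Syk, Fgr and Btk were high in CD45 libraries and at or near 0 in both kinds of epithelial library. By range over libraries, 3 members (Lyn, Bmx and Matk) were higher in every brush library than in every EpCAM library and 5 overlapped. Among all 13418 genes tested, 9.54% had brush values all above and 10.7% all below the EpCAM values. Between brush and CD45 libraries 2 members (Bmx and Matk) were higher in every brush library, 5 were lower and 1 (Lyn) overlapped, where 16.8% of all genes lay wholly above and 13.8% wholly below. Between EpCAM and CD45 libraries Bmx alone was higher in every EpCAM library and the other 7 were lower, where 15.9% of all genes lay wholly above and 11.4% wholly below. Since the members were chosen for such patterns, nothing is read from these counts. Here and in all results below, a higher level can mean more cells of a type or more RNA per cell, and a lower one fewer cells or less RNA per cell, which bulk libraries cannot tell apart.

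**Figure D1:**
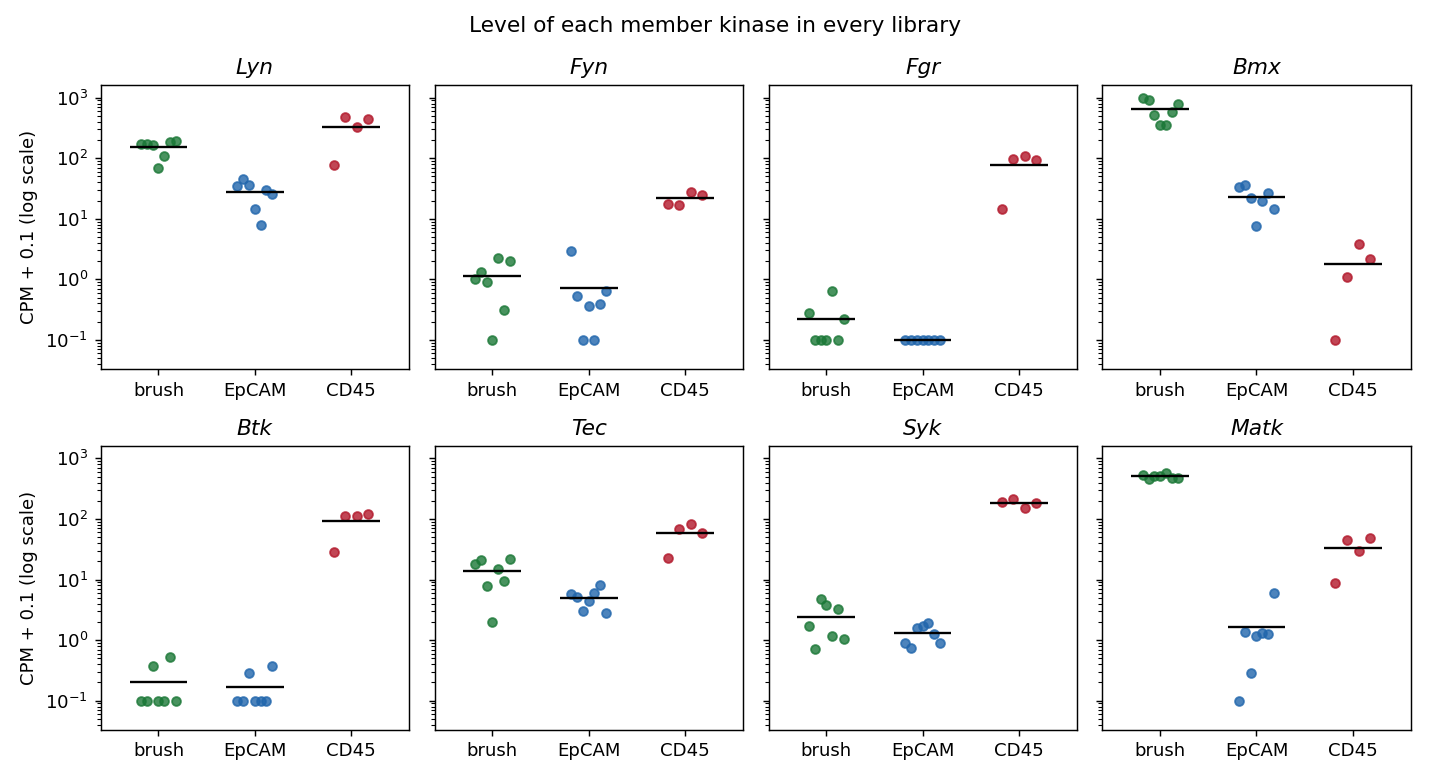
CPM of each of the 8 kinases in every library (points) with the group mean (line), on a log axis after adding 0.1 CPM. Bmx and Matk lie at 356 CPM or higher in all brush libraries, Lyn lies between 69.8 and 196 CPM in brush libraries, and Fgr and Btk are near the bottom of the axis in brush and EpCAM libraries.

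Lyn, a Src family kinase of B cells, myeloid cells and mast cells that both starts and restrains signalling, lies on the plus strand of chromosome 4 (GRCm38, chr4:3678115-3813122). It had 69.8 CPM at lowest, 169 at the median and 196 at highest over the brush libraries, 7.71, 30.3 and 44.8 CPM over the EpCAM libraries, and 77.6, 472, 327 and 441 CPM in the 4 CD45 libraries. The lowest brush library, brush 4, exceeded the highest EpCAM library, and the brush range overlapped the CD45 range only through CD45 1. The means were 152 ± 45.1 CPM in brush (SD, n = 7), 27.7 ± 12.9 in EpCAM (n = 7) and 330 ± 179 in CD45 libraries (n = 4). The fitted log2 fold change was 2.46 ± 0.40 (SE) for brush over EpCAM and -1.12 ± 0.43 for brush over CD45. Without the 3 libraries that stood apart these were 2.44 and -1.28. Lyn was thus the one Src family member of the 8 with a substantial level in brush libraries. On the length-normalised TPM scale (transcripts per 1000000) Lyn averaged 69.3 in brush, 8.88 in EpCAM and 96.5 in CD45 libraries.

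Fyn, a Src family kinase of T cells, neurons and many other cells, lies on the plus strand of chromosome 10 (chr10:39368855-39565381). Its values were 0, 0.906 and 2.18 CPM (lowest, median and highest) in brush libraries, 0, 0.288 and 2.81 CPM in EpCAM libraries, and 17.2, 16.9, 27.8 and 24.6 CPM in CD45 libraries. Brush and EpCAM ranges overlapped and rested on 35 and 14 counts in all, and every CD45 library was higher than every epithelial one. The log2 fold change was 1.07 ± 0.69 for brush over EpCAM, 2.03 without EpCAM 1, and -4.26 ± 0.66 for brush over CD45. EpCAM 1 held 7 of the 14 EpCAM counts, and without it the EpCAM mean of 0.618 CPM was 0.254.

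Fgr, a Src family kinase of granulocytes and monocytes, lies on the plus strand of chromosome 4 (chr4:132974095-133001910). It had 3 counts over all brush libraries (mean 0.121 CPM), 0 counts over all EpCAM libraries, and 14.4, 95.5, 110 and 93 CPM in the CD45 libraries. The 0 in EpCAM libraries allows up to 0.0986 CPM (3 counts over the group, counting error only). Brush 5, with 1 count in a small library, made up most of the brush mean, and the mean without it was 0.05 CPM. Ratios and lower bounds for genes with 0 to 3 counts in a group are, here and below, of counts pooled over the libraries of each group, in which deeper libraries weigh more, and so differ from the ratio of the mean CPM. Pooled, Fgr was at 0.101 CPM in brush and 101 CPM in CD45 libraries, and the ratio of CD45 over brush was 996 (95% counting interval 340 to 4834), with CD45 the numerator.

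Matk, the Csk-type kinase known from megakaryocytes, T cells and brain, lies on the plus strand of chromosome 10 (chr10:81252935-81263365). Its values were 449, 516 and 564 CPM (lowest, median and highest) in brush libraries, 0, 1.15 and 5.93 CPM in EpCAM libraries, and 8.62, 44.4, 29.6 and 48.8 CPM in CD45 libraries. The 3 groups did not overlap, and EpCAM 7 stood above the other EpCAM libraries, which had 0 to 1.27 CPM. The means were 505 ± 40.6 CPM in brush (SD, n = 7), 1.55 ± 2.0 in EpCAM (n = 7) and 32.8 ± 18.1 in CD45 libraries (n = 4). Its coefficient of variation over the brush libraries was 8.05%, the smallest of the 8 members, against 40.5% for Bmx and 29.7% for Lyn. The log2 fold change was 8.33 ± 0.60 for brush over EpCAM, 9.17 without EpCAM 7, and 3.87 ± 0.61 for brush over CD45. Without EpCAM 7 the EpCAM mean of Matk was 0.821 CPM. Per length it was the most abundant of the 8 in brush libraries, at 395 ± 100 TPM, against 0.716 TPM in EpCAM and 17.3 TPM in CD45 libraries.

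The promoter windows of Matk and Bmx are printed because these 2 members shared the pattern of a brush level above both other groups. Each runs from 250 bases before to 50 bases after an annotated start (RefSeq, GRCm38.p6), 5′ to 3′ on the gene's strand, with the 50 bases from the start on in capitals. Matk has 2 annotated starts, at chr10:81252685-81252984 and chr10:81257049-81257348 on the plus strand, and Bmx has 1, at chrX:164258144-164258443 on the minus strand.
Matk, upstream start: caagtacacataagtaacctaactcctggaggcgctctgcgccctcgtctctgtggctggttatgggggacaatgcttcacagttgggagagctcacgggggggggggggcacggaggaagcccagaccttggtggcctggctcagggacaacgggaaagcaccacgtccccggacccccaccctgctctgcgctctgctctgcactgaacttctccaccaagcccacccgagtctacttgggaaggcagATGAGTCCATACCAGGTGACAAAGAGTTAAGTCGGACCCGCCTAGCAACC
Matk, downstream start: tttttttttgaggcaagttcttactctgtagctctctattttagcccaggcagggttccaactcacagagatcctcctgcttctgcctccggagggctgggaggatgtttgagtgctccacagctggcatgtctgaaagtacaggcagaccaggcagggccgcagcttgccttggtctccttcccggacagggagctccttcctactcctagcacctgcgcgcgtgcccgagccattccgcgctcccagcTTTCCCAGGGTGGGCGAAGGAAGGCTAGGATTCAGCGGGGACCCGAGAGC
Bmx: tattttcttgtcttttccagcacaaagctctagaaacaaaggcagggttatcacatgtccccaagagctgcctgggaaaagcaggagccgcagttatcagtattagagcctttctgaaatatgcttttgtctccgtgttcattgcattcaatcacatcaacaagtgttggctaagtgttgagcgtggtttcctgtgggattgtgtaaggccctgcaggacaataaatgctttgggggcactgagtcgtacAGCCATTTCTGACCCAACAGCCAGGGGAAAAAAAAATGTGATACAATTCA
Bases G and C made up 60.7% and 59.0% of the Matk windows and 44.7% of the Bmx window, where the median over all 32851 RefSeq windows was 52.7%. Neither gene's windows held any of the 4 motifs searched on both strands, none of which is part of another: the octamer ATGCAAAT (in 1.74% of all windows), GAGGAAGT, a PU.1-like site (3.2%), TATAAA (13.6%) and the GC box GGGCGG (35.7%). Among the other members Fyn and Tec each held at least 1 GC box. Windows were matched for 7 of the 8 members, and Lyn is named only.

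Syk, the kinase that docks on phosphorylated receptor tails, lies on the plus strand of chromosome 13 (chr13:52583173-52648792). Its values were 0.608, 1.63 and 4.61 CPM (lowest, median and highest) in brush libraries, 0.637, 1.15 and 1.85 CPM in EpCAM libraries, and 193, 214, 153 and 184 CPM in CD45 libraries. Both epithelial groups overlapped, and the CD45 libraries were alike, with a coefficient of variation of 13.6%. The means were 2.27 ± 1.57 CPM in brush (SD, n = 7), 1.19 ± 0.467 in EpCAM (n = 7) and 186 ± 25.3 in CD45 libraries (n = 4). The log2 fold change was 0.75 ± 0.41 for brush over EpCAM and -6.47 ± 0.42 for brush over CD45. Brush libraries held 1.22% of the CD45 level of Syk.

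Bmx, the Tec family kinase of endothelium and epithelium, lies on the minus strand of the X chromosome (chrX:164192842-164258193). It had 356 CPM at lowest, 581 at the median and 994 at highest over the brush libraries, 7.41, 22.3 and 36.5 CPM over the EpCAM libraries, and 0, 0.997, 3.72 and 2.03 CPM in the CD45 libraries. The 3 groups did not overlap, and unlike the other 7 members Bmx was lowest in CD45 libraries. The means were 646 ± 261 CPM in brush (SD, n = 7), 22.8 ± 10.2 in EpCAM (n = 7) and 1.69 ± 1.59 in CD45 libraries (n = 4). The log2 fold change was 4.83 ± 0.42 for brush over EpCAM and 8.18 ± 0.66 for brush over CD45. It was 8.87 for brush over CD45 without CD45 3, which held the highest CD45 value. Without CD45 3 the CD45 mean of Bmx was 1.01 CPM. Brush 4 and brush 5, both at 356 CPM, had the lowest total counts and the highest ribosomal RNA shares of their group (60.9% and 50.25%), and the part of either in the Bmx level was not tested.

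As Bmx is also an endothelial gene, the 6 endothelial markers were summed: 20.7 to 101 CPM in brush, 0 to 1.44 CPM in EpCAM and 13.5 to 99.3 CPM in CD45 libraries. Of the brush mean of 56.0 CPM, Tek, which encodes the receptor kinase Tie2, made up 55.7 CPM, while Cdh5, which encodes VE-cadherin, was at 0 and Pecam1 at 0.108 CPM. Of the CD45 mean of 45.5 CPM, Pecam1 made up 44.4 CPM, while Tek was at 0 and Cdh5 at 0.179 CPM. The part of endothelial RNA in the Bmx level was not tested.

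Btk, the Tec family kinase of B cells and myeloid cells, lies on the minus strand of the X chromosome (chrX:134542336-134583570). It had 3 counts over all brush libraries (mean 0.0996 CPM), 2 counts over all EpCAM libraries (mean 0.065 CPM), and 28.7, 112, 110 and 120 CPM in the CD45 libraries. Each mean of the epithelial groups hung on 1 library: it was 0.0451 CPM without brush 6 and 0.031 CPM without EpCAM 7. CD45 1 held a lower value than the other CD45 libraries, from 10 counts. Pooled, Btk was at 0.101 CPM in brush and 111 CPM in CD45 libraries, and the ratio of CD45 over brush was 1099 (95% counting interval 375 to 5333), with CD45 the numerator.

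Tec, the founding member of the Tec family, lies on the minus strand of chromosome 5 (chr5:72755716-72868483). Its values were 1.89, 14.7 and 21.5 CPM (lowest, median and highest) in brush libraries, 2.7, 5.1 and 8.07 CPM in EpCAM libraries, and 23, 68.3, 83.3 and 59.2 CPM in CD45 libraries. Brush 4 was the lowest brush library, below all EpCAM libraries, but its value came from 1 count. The highest brush library fell just short of the lowest CD45 library. The means were 13.5 ± 7.38 CPM in brush (SD, n = 7), 4.95 ± 1.85 in EpCAM (n = 7) and 58.4 ± 25.7 in CD45 libraries (n = 4). The log2 fold change was 1.53 ± 0.37 for brush over EpCAM (1.74 without the 3 libraries that stood apart) and -2.08 ± 0.40 for brush over CD45. Lyn, Fyn, Btk and Tec overlap other annotated genes, among them noncoding genes and pseudogenes on the opposite strand. Whether counting used strand is not given in the sources used here, so reads of such neighbours cannot be told apart.

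Per length, Matk and Bmx took the highest shares of the TPM summed over the 8 members and the 22 other cytoplasmic tyrosine kinases reported here in brush libraries. The members were chosen on these levels and the sum does not hold every such kinase, so it serves only as a denominator and is not compared between the groups. Matk took 40.7 ± 7.81% of the sum over these 30 kinases in brush libraries and Bmx 25.4 ± 8.95% (SD, n = 7 each). Together these 2 took 63.3 to 71.9% of the brush sum, 2.35 to 8.94% of the EpCAM sum and 0.514 to 4.3% of the CD45 sum. Fes, a kinase of myeloid cells, took 8.91%, Csk 6.34% and Lyn 6.31% of the brush sum. Jak1, a kinase of cytokine receptors, led in EpCAM libraries with 26.2% of the sum. In CD45 libraries Lck, the Src family kinase of T cells, had the highest mean share, 18.9 ± 18.2% (SD, n = 4, range 2.35 to 40.3%). Fes followed at 17.6% and Lyn at 14.3%. The lead of Lck did not hold in every CD45 library, since CD45 2 had 14.9 TPM of Lck and 148 TPM of Lyn. The 8 members together took 69.1 to 79.5% of the sum in brush, 8.49 to 22.8% in EpCAM and 14.3 to 50.1% in CD45 libraries. In brush libraries the order of the 8 by mean TPM began with Matk at 395, Bmx at 288, Lyn at 69.3 and Tec at 12.8, and the Matk and Bmx ranges overlapped (206 to 519 and 58.1 to 478 TPM). Syk was at 0.411 TPM, Fgr at 0.03 and Btk at 0.0286. Fyn averaged 4.4 TPM (0 to 9.35), and its TPM did not follow its counts, with 6.04 TPM from 1 count in brush 6 and 1.37 TPM from 16 counts in brush 7. The order of Fyn, Syk, Fgr and Btk rests on few counts.

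**Figure D2:**
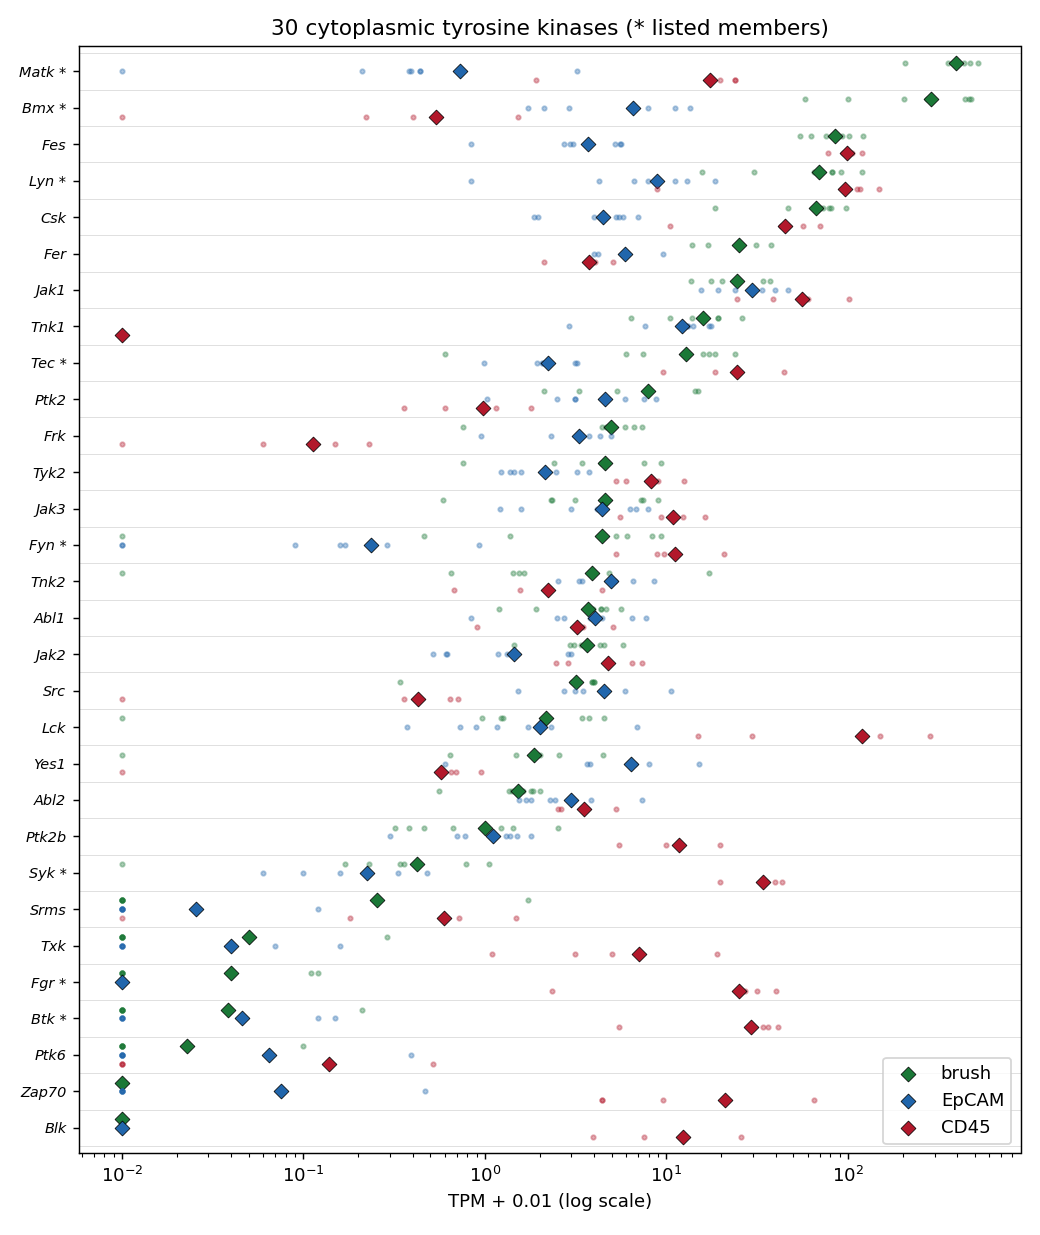
TPM of 30 cytoplasmic tyrosine kinases (small points, libraries; diamonds, group means) on a log axis after adding 0.01 TPM, ordered by the brush mean, with the 8 members starred. Matk and Bmx head the plotted kinases in brush libraries (395 and 288 TPM), while Zap70 and Blk have values in CD45 libraries and are at 0 TPM in brush libraries.

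White blood cell RNA in the brush libraries was measured beside the members. The pan-leukocyte markers in brush libraries summed to 1.98% of their CD45 level (94.3 to 224 CPM in brush, 6570 to 7218 CPM in CD45 libraries). Of their brush mean of 137 CPM, Lcp1, which encodes the actin bundler L-plastin, made up 106 CPM and Ptprc, which encodes CD45 itself, 21 CPM. Markers of macrophages and dendritic cells stood at 0.474% of the CD45 level, of mast cells and granulocytes at 0.219%, of B cells at 0.118%, and of T, NK and innate lymphoid cells at 0.087%. Cd79a, Ms4a1 and Pax5 (B cells), Cd3g and Ncr1 (T and NK cells), and Cpa3 and Fcer1a (mast cells) were at 0 in every brush library. Against these shares, brush libraries held 46.1% of the CD45 level of Lyn, 23.1% of Tec, 4.77% of Fyn, 1.22% of Syk, 0.154% of Fgr and 0.107% of Btk. Lyn, Tec and Fyn thus lay above each of these summed shares, Syk lay between the pan-leukocyte share and the macrophage and dendritic cell share, and Fgr and Btk lay between the mast cell and the T cell shares. Taken singly, Siglecf (14.1%), Lcp1 (11.2%) and Ebf1 (8.8%) lay above Fyn and below Lyn and Tec, and the other markers were at 2.18% or less. The part of white blood cell RNA in the low values was not tested.

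**Figure D3:**
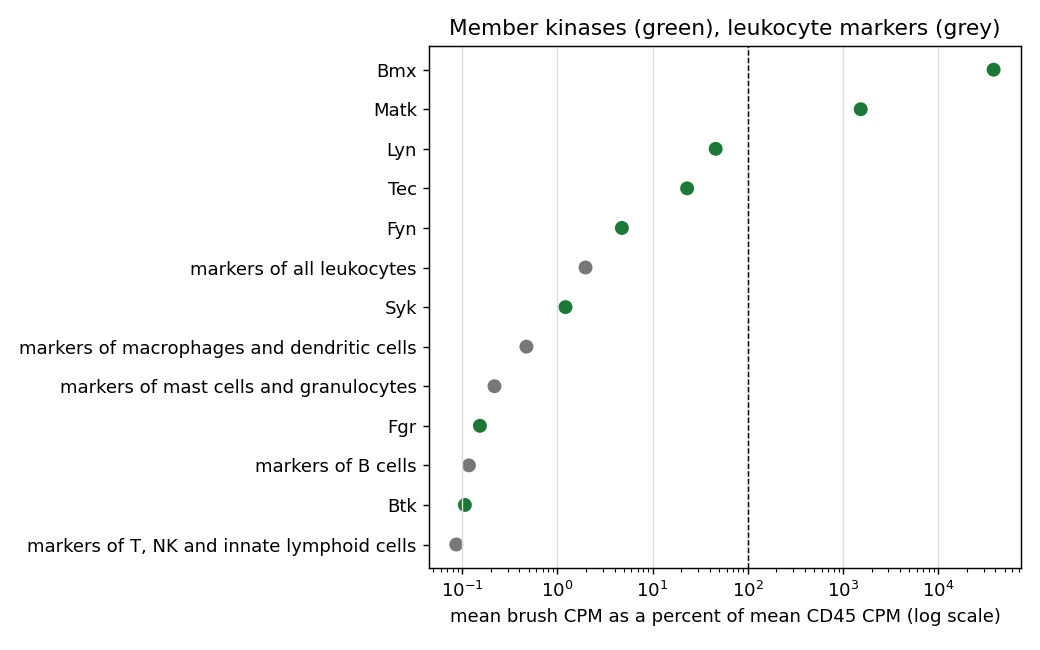
Mean brush CPM as a percent of mean CD45 CPM on a log axis, for the 8 kinases (green) and for the summed markers of 5 leukocyte groups (grey); the dashed line marks 100%. Bmx (38250%) and Matk (1537%) lie to the right of the line, Lyn, Tec and Fyn lie between it and the pan-leukocyte markers at 1.98%, and Fgr and Btk lie among the grey points.

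The EpCAM gate as worded can hold brush cells, and the brush markers were measured in EpCAM libraries beside the members. The 10 brush markers had 17.6 CPM in EpCAM libraries, which is 0.166% of their brush sum. Singly they ranged from 0% (Il25 and Gfi1b) to 0.995% (Pou2f3, the transcription factor that specifies tuft cells). Matk in EpCAM libraries was 0.307% of its brush level, within that range, from a mean of 1.55 CPM that was 0.821 CPM without EpCAM 7. Bmx was 3.53% and Lyn 18.3% of their brush levels, above each of the 10 markers. The part of brush cells in the EpCAM values of the members was not tested.

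The transcript length that RSEM reports, the mean over annotated forms weighted by their estimated abundance, was not used to choose the members and was compared by two-sided exact permutation tests over libraries. A total of 6 tests were possible with at least 10 expected counts per library and 3 libraries per group, and p-values were adjusted over them (Benjamini-Hochberg). Bmx had a shorter mean transcript in brush than in EpCAM libraries. Its mean length was 2767 ± 39.7 bases in brush (SD, n = 7) and 2961 ± 84.6 bases in EpCAM libraries (n = 7), a difference of -194 bases (exact permutation adjusted p = 0.0105). Taken as a difference in medians it was -223 bases (exact permutation adjusted p = 0.105). The brush values ran from 2713 to 2828 bases, while 5 of the 7 EpCAM libraries sat at exactly 3005 bases, 1 at 2917 and 1, EpCAM 1, at 2784, within the brush range.

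GENCODE vM21 lists 2 forms of Bmx, both coding with 19 exons, Bmx-201 of 2433 bases and Bmx-202 of 3005 bases. They share exons 2 to 18. Bmx-202 begins at chrX:164258048-164258193, whose start the printed promoter window covers, and Bmx-201 begins at chrX:164250282-164250368, inside the first intron of Bmx-202. Their last exons start together and end apart, since that of Bmx-202 spans chrX:164192842-164193810 and that of Bmx-201 chrX:164193355-164193810. If RSEM's annotation held these 2 forms, as the highest length of exactly 3005 bases matches, the mean length gives the estimated share of the shorter one: 41.5 ± 6.94% in brush (SD, n = 7; 30.9 to 51.0%) and 7.7 ± 14.8% in EpCAM libraries (n = 7; 0 in 5 libraries, 38.6% at highest). The EpCAM estimates rested on 35 to 155 expected counts and the brush ones on 136 to 5868.5. At a like number of expected counts of Bmx, brush 4 with 136 stood at 30.9% and EpCAM 2 with 155 and EpCAM 3 with 112 at 0%. These libraries differed in total counts and ribosomal RNA share (838328 and 60.9% in brush 4, 4403708 and 29.78% in EpCAM 2, 5205522 and 27.53% in EpCAM 3), and brush 4 is one of those that stood apart. Whether sequencing bias along the transcript differed between the groups was not tested.

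Lyn also had shorter transcripts in brush libraries, at 3180 ± 321 bases (SD, n = 7) against 3432 ± 56.2 bases in EpCAM libraries (n = 7), a difference of -252 bases (exact permutation adjusted p = 0.021). The ranges overlapped at 2479 to 3463 bases in brush and 3321 to 3463 bases in EpCAM libraries. The difference was -135 bases without brush 4, which had 31.7 expected counts of Lyn. The call was lost when any of EpCAM 1, 2, 4, 6 or 7 was left out (exact permutation adjusted p = 0.0629 each) and as a difference in medians (-173 bases, exact permutation adjusted p = 0.105). No difference passed the test for Lyn between brush and CD45 libraries (-86.8 bases, exact permutation adjusted p = 0.767), for Matk between brush and CD45 libraries (-49.1 bases, exact permutation adjusted p = 0.194) or for Tec between brush and EpCAM libraries (-424 bases, exact permutation adjusted p = 0.194). Tec between brush and CD45 libraries differed by -627 bases (exact permutation adjusted p = 0.0714, with 0.0119 the smallest p that 6 against 3 libraries can give), and without brush 6 by -742 bases (exact permutation adjusted p = 0.0357).

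**Figure D4:**
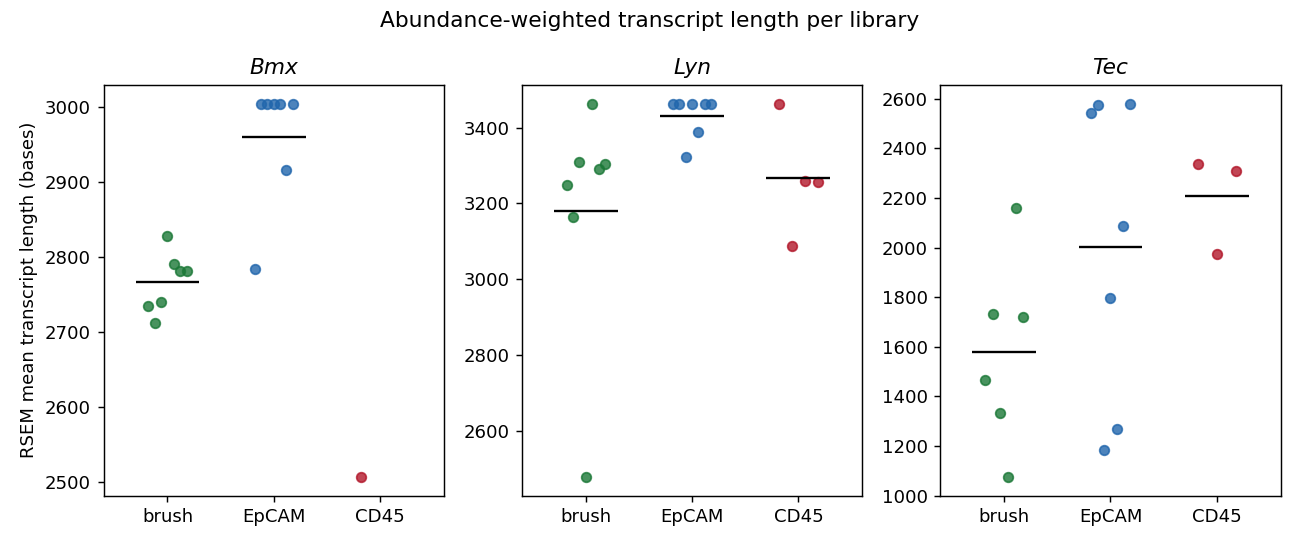
RSEM mean transcript length in bases of Bmx, Lyn and Tec in each library with at least 10 expected counts (points) with group means (lines, where 3 or more libraries qualify); the vertical axes differ and do not start at 0. For Bmx the brush libraries lie between 2713 and 2828 bases and 5 EpCAM libraries lie at 3005 bases, and the 1 CD45 library that qualifies lies at 2507 bases from 29.0 expected counts.

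The genes most alike in level to each member were found by Pearson correlation of log2(CPM + 1) over the 18 libraries, which share 3 cell groups, so that a gene of the same group scores high. Bmx was closest to Slitrk6 (0.986), Cadps2 (0.983) and Sox9 (0.981), and Matk to Cd300lf (0.983), Tspan13 (0.98) and Lrmp (0.977). Lyn was closest to Prcp (0.977), Man2b1 (0.974) and Snx10 (0.969), and Tec to Nup210 (0.944), Cd33 (0.936) and Tnfrsf1b (0.931). For the members of the CD45 libraries the nearest genes were Pik3cd, Igsf6 and Fam105a for Fyn (0.955 to 0.962), Dock10, Ms4a6b and Tifab for Syk (0.985 each), Pdcd1, Gm6377 and C920009B18Rik for Fgr (0.996 to 0.998), and Jchain, Nfam1 and St8sia4 for Btk (0.997 to 0.998). Between the members themselves, Fgr and Btk correlated highest (0.99), followed by Btk and Syk (0.97) and Fgr and Syk (0.95). The lowest value was that of Bmx and Btk (-0.7). Bmx and Matk correlated at 0.66, Lyn and Tec at 0.79, Lyn and Matk at 0.69 and Bmx and Syk at -0.68.

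The 22 other cytoplasmic tyrosine kinases were tested between the groups with edgeR's quasi-likelihood test, with Benjamini-Hochberg adjustment over all 13418 genes, and 19 had enough counts. Both comparisons use the same brush libraries. Brush against EpCAM gave 4 kinases higher (21.1%) and 3 lower (15.8%) at adjusted p below 0.05. Of all genes tested, 18.3% were higher and 22.0% lower. The list's median log2 fold change was -0.30, against -0.06 over all genes. Brush against CD45 gave 6 higher (31.6%) and 9 lower (47.4%), where 23.4% of all genes were higher and 22.4% lower. The medians were -0.59 for the list and 0.05 for all genes. Genes such as Blk and Zap70 passed the count filter only through CD45 libraries, which fixed a lower call in advance. Nothing is therefore read from the lower share.

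Within the Src family, Src, the founding member, was at 10.5 CPM in brush and 16.6 CPM in EpCAM libraries, a difference that did not pass (-0.60 ± 0.34, edgeR adjusted p = 0.166), and was higher than in CD45 libraries at 2.13 CPM (2.09 ± 0.47). Yes1, a widely expressed Src family kinase, fell in brush libraries to 3.66 CPM, against 16.7 CPM in EpCAM libraries (-2.0 ± 0.48, edgeR adjusted p = 0.00158), and was higher than the 0.661 CPM of CD45 libraries (2.26 ± 0.71, adjusted p = 0.0114, or 0.0584 from RSEM counts). Frk, a kinase of epithelia, had 18.8 CPM in brush and 17.7 CPM in EpCAM libraries, not different by the test (0.13 ± 0.28), and 0.723 CPM in CD45 libraries (4.36 ± 0.47, edgeR adjusted p = 5.97e-08). The lymphocyte kinases Lck and Blk were lower in brush than in CD45 libraries, Lck at 2.16 CPM in brush and 171 CPM in CD45 (-6.60 ± 0.65), and Blk at 0 in brush, at least 623-fold lower than its pooled 63.2 CPM in CD45.

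Csk, the general inhibitor of the Src family and the nearest relative of Matk, rose in brush libraries to 114 ± 31.4 CPM (SD, n = 7), against 7.37 ± 2.56 CPM in EpCAM libraries (n = 7; log2 fold change 3.96 ± 0.38, edgeR adjusted p = 1.84e-08). In CD45 libraries Csk had 101 ± 56.6 CPM (n = 4), and brush over CD45 did not pass the test (0.14 ± 0.39, edgeR adjusted p = 0.805). Zap70, the relative of Syk in T cells, was lower in brush than in CD45 libraries, with pooled levels of 0.0338 CPM in brush and 62.6 CPM in CD45 libraries, a CD45 over brush ratio of 1853 (95% counting interval 332 to 73255). Ptk6, Srms and Txk had too few counts to be tested.

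Of the kinases outside these families, Fes (4.34 ± 0.42) and Fer (1.5 ± 0.32), a pair of related kinases of adhesion and cytokine signalling, rose most in brush over EpCAM libraries by log2 fold change. Tnk2 (-1.53 ± 0.48) and Abl2 (-0.98 ± 0.26) fell most. Jak2 was the fourth kinase that rose over EpCAM (1.23 ± 0.36, edgeR adjusted p = 0.00808). Over CD45 libraries Tnk1 and Ptk2, which encodes focal adhesion kinase, rose most, Tnk1 to a pooled 22.8 CPM in brush against 0 in CD45 (at least 132-fold higher) and Ptk2 by 2.29 ± 0.50. Ptk2b, the relative of Ptk2 in blood cells, and Jak3, the kinase of common gamma chain receptors, fell most over CD45 (-4.40 ± 0.51 and -1.96 ± 0.37). Jak2 over CD45 was called lower (-1.07 ± 0.40, edgeR adjusted p = 0.0322) but not without any one of brush 1, 2, 6 or 7 or CD45 2 or 4, where the adjusted p was 0.0591 to 0.146, or from RSEM counts (0.0762).

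**Figure D5:**
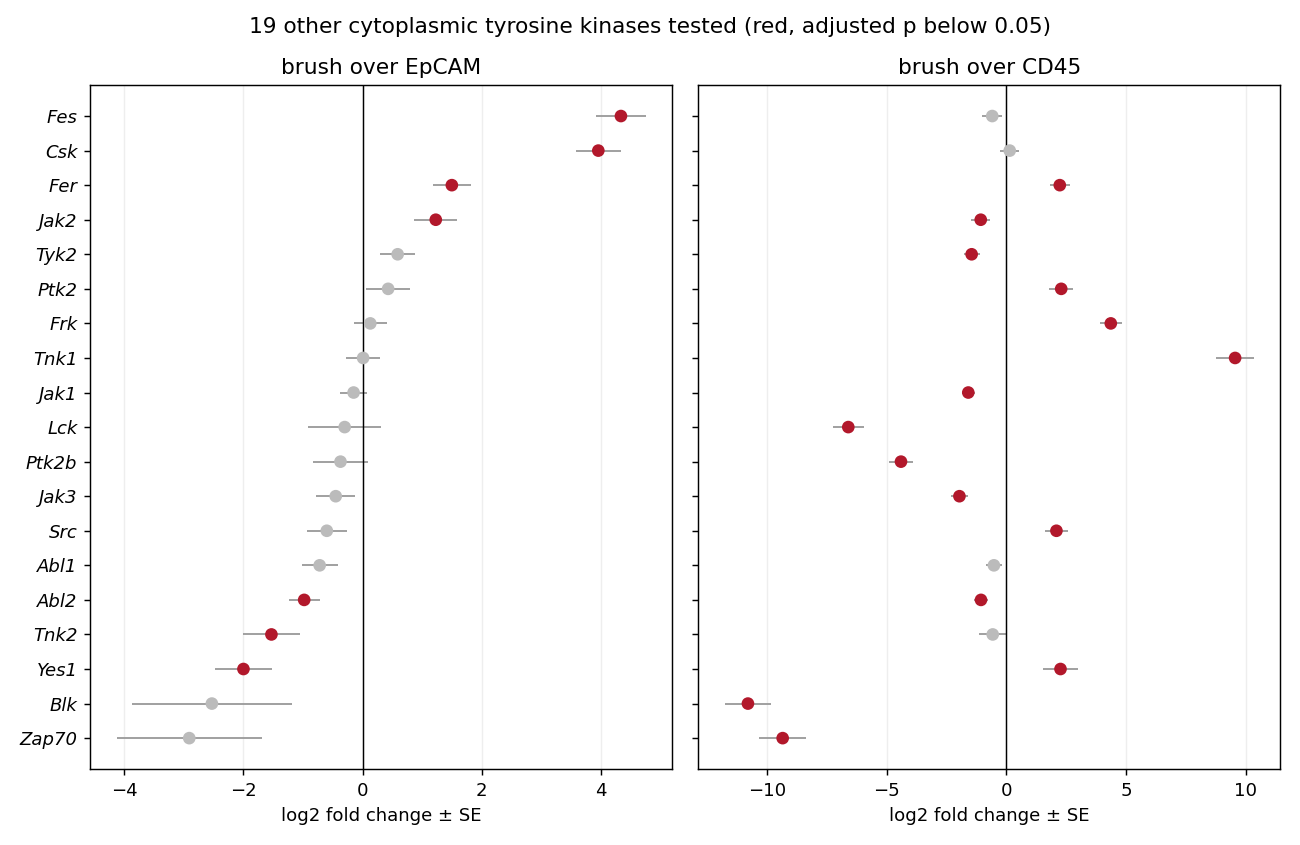
Fitted log2 fold change with its standard error for the 19 other kinases tested, brush over EpCAM on the left and brush over CD45 on the right, red where the adjusted p was below 0.05. Fes and Csk lie farthest to the right against EpCAM (4.34 and 3.96) and were not called against CD45 (-0.59 and 0.14); for Blk, Zap70 and Tnk1, with 0 to 3 counts in a group, the fitted value depends on the prior count.

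Receptors and signalling chains that use Src family kinases and Syk were tested as a list of 36 genes, of which 31 had enough counts. Brush over EpCAM gave 10 higher (32.3%, against 18.3% of all genes) and 3 lower (9.68%, against 22.0%). Most of these calls were of genes with too few counts for a fit on the 2 groups alone. They passed the filter through CD45 libraries, so nothing is read from either share over EpCAM. Brush over CD45 gave 1 higher (3.23%, against 23.4% of all genes) and 29 lower (93.5%, against 22.4%). Genes such as Cd79a, Clec7a and Cd3g, at 0 in brush libraries, passed the count filter only through CD45 libraries. For such genes a lower call over CD45 was fixed in advance, so nothing is read from that share. The median log2 fold changes were 0.78 over EpCAM, where that of all genes was -0.06, and -9.66 over CD45, where that of all genes was 0.05. The one receptor higher in brush than in both other groups was Cd300lf, an inhibitory receptor for lipids that recruits phosphatases, with a mean of 288 CPM in brush, 0 counts in EpCAM and 24.2 CPM in CD45 libraries. Its pooled brush level of 302 CPM exceeded the EpCAM one at least 3062-fold, and its log2 fold change over CD45 was 3.51 ± 0.37 (edgeR adjusted p = 5.38e-07). Cd79b, a chain of the B cell receptor, rose over EpCAM (31.8 CPM in brush, 1.01 CPM in EpCAM, log2 fold change 4.98 ± 0.46), while its partner Cd79a was at 0 in brush. Cd36, a scavenger receptor that signals through Lyn and Fyn, was 1.55 ± 0.44 higher on the log2 scale at 218 CPM in brush and 74.9 CPM in EpCAM libraries. Fcer1g, the shared chain of Fc receptors through which Syk acts, had 0.651 CPM in brush, 0.482 CPM in EpCAM and 864 CPM in CD45 libraries. Cd79a, the yeast-glucan receptor gene Clec7a and Cd3g, all at 0 in brush libraries, were at least 3391-fold, 2178-fold and 836-fold lower than in CD45 libraries. Most calls against EpCAM were of genes at low counts, and a fit on the 2 groups alone, which tested fewer of them, gave 3 higher and 1 lower.

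Substrates and adaptors below the kinases were tested as a list of 46 genes, 45 with enough counts. Brush over EpCAM gave 15 higher (33.3%, against 18.3% of all genes) and 9 lower (20%, against 22.0%), with a median of 0.28 (all genes -0.06). Among these calls Lcp2, Hcls1, Dok2, Gab2 and Grap (higher) and Lat2 and Stap1 (lower) had too few counts for a fit on the 2 groups alone. They passed the filter through CD45 libraries, so nothing is read from the higher share. All 35 brush counts of Grap came from 1 library, and its log2 fold change was -1.65 without brush 7. Brush over CD45 gave 10 higher (22.2%, against 23.4% of all genes) and 29 lower (64.4%, against 22.4%), with a median of -2.74 (all genes 0.05). Genes such as Was passed the count filter only through CD45 libraries, which fixed a lower call in advance, so nothing is read from the lower share. The share lower over EpCAM and the share higher over CD45 were thus near those of all genes. The genes that rose or fell most are given among those with at least 10 CPM in a group. Plcg2, the phospholipase C gamma that Btk and Syk act on in B cells, averaged 180 ± 52.6 CPM in brush (SD, n = 7), 5.74 ± 3.82 in EpCAM (n = 7) and 121 ± 89.5 in CD45 libraries (n = 4). It rose over EpCAM (5.0 ± 0.45, edgeR adjusted p = 5.57e-09) and did not pass the test over CD45 (0.56 ± 0.44, adjusted p = 0.325). Fyb (ADAP, 10.97 ± 0.55), Pik3r5 (10.93 ± 0.73), a subunit of PI3K gamma, and the exchange factor Vav1 (10.38 ± 0.63) rose most over EpCAM by log2 fold change, beside Inpp5d, the lipid phosphatase SHIP-1. Vav1 averaged 723 CPM in brush, 0.582 CPM in EpCAM and 199 CPM in CD45 libraries. Pooled, Inpp5d was at 251 CPM in brush and 0.0986 CPM in EpCAM libraries, a ratio of 2541 (95% counting interval 869 to 12323), and Prkcb, a protein kinase C, at 10.6 CPM in brush and 0.0329 CPM in EpCAM libraries, a ratio of 323 (57.5 to 12787). Prkcd (-4.12 ± 0.52), another protein kinase C, the scaffold Nedd9 (-2.59 ± 0.39) and Vav3 (-2.21 ± 0.49) fell most among genes with at least 10 CPM in a group, while Sh3bp2 (-4.24), Lat2 (-2.73) and Stap1 (-2.67), which were under 10 CPM, were also called lower. Over CD45 libraries the cytoskeletal substrates Cttn, which encodes cortactin (6.03 ± 0.56), and Bcar1, which encodes p130Cas (4.85 ± 0.56), rose most, followed by Pik3r5 (3.31 ± 0.63), the calcium channel gene Itpr3 (1.99 ± 0.42) and Gab1 (1.95 ± 0.59). Bank1 (-10.24 ± 0.68) and Hcls1 (-9.40 ± 0.73), adaptors of B and other blood cells, and Was, at 0 in brush and at least 226-fold lower, fell most over CD45.

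Regulators of the kinases were tested as a list of 26 genes, 24 with enough counts. Brush over EpCAM gave 9 higher (37.5%, against 18.3% of all genes) and 5 lower (20.8%, against 22.0%), with a median of -0.05 (all genes -0.06). The 5 lower were all under 10 CPM in both groups, and most of them passed the filter only through CD45 libraries. A fit on the 2 groups alone gave 1, so nothing is read from the share lower over EpCAM. Brush over CD45 gave 4 higher (16.7%, against 23.4% of all genes) and 13 lower (54.2%, against 22.4%), with a median of -1.36 (all genes 0.05). Genes such as Sh2d1b1 passed the count filter only through CD45 libraries, which fixed a lower call in advance, so nothing is read from the lower share. The genes named below had at least 10 CPM in a group. Ptpn6, which encodes the phosphatase SHP-1, averaged 1208 CPM in brush, 26.9 CPM in EpCAM and 599 CPM in CD45 libraries. It rose over EpCAM by a log2 fold change of 5.49 ± 0.37 (edgeR adjusted p = 8.37e-11). Over CD45 it was called higher (1.01 ± 0.37, edgeR adjusted p = 0.0276) but not without CD45 1 (adjusted p = 0.0766), without CD45 4 (0.0518) or with ribosomal RNA genes left out (0.0698). Sh2d6, which encodes an SH2 domain protein, rose over both, to 765 CPM in brush, against 0.222 CPM in EpCAM and 0.891 CPM in CD45 libraries (11.90 ± 0.59 and 9.45 ± 0.68). The phosphatase gene Ptpn18 also rose over both, to 709 CPM in brush, against 34.6 CPM in EpCAM and 186 CPM in CD45 libraries (4.36 ± 0.39 and 1.96 ± 0.43). Pstpip1, an adaptor for phosphatases, rose over EpCAM (6.23 ± 0.46). Ptprc, the CD45 phosphatase that activates Src family kinases and whose protein defined the gates, had means of 21 CPM in brush and 962 CPM in CD45 libraries, and pooled levels of 19.4 CPM in brush and 0.0329 CPM in EpCAM libraries, a ratio of 589 (95% counting interval 105 to 23302). Cblc, the Cbl ubiquitin ligase of epithelia, had pooled levels of 54.5 CPM in brush and 0.0574 CPM in CD45 libraries, a ratio of 950 (170 to 37535). Ptpn22 (-9.41 ± 0.75) and Sla (-8.69 ± 0.86), which restrain the kinases in lymphocytes, and Sh2d1b1, at 0 in brush and at least 148-fold lower, fell most over CD45.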

How the data were processed

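RNA was measured in 18 libraries of sorted tracheal cells. The submitters' processing notes list the mm10 build and, as tools, RSEM 1.2.21, STAR 2.4.2a, Picard, DESeq2 and featureCounts, with no order. Which annotation and which strand setting they used is not given in the sources used here. The authors deposited 1 table of raw counts per gene, and per library an RSEM table with expected counts, TPM and transcript length, the other unit used, in bases. Their table of normalized values was not used.

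Counts were scaled by TMM and, for the lists of non-members, tested with edgeR 4.0.16 (R 4.3.3; quasi-likelihood, all 18 libraries in 1 fit, filterByExpr keeping 13418 genes, Benjamini-Hochberg over all of them, threshold 0.05). The SE given with an edgeR log2 fold change is its absolute value over the square root of the F statistic of its test. It is thus derived from that test, also for the members, for which no p-value is given. The procedure was checked on simulated data. RSEM expected counts, rounded, DESeq2 1.42.0 and limma 3.58.1 (voom) were alternatives, as were other filters, scalings and left-out libraries. Intervals and floors (3 counts) cover counting error only. Whether replicate numbers pair libraries is not stated, and the main fit did not pair them. Gene positions are from GENCODE vM21, which has the same build.

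The members and lists were chosen with earlier results of these data known. Named were all members, the other kinases of the Src, Frk, Tec, Syk and Csk families, the 2 largest changes each way among the remaining kinases, and from each list the called genes with the highest (up to 5) and lowest (up to 3) log2 fold changes with at least 10 CPM in a group. For each member the 3 genes nearest by correlation were named too. Plcg2, Fcer1g, Jak1 and Jak2 fall outside this rule and were named after their values were seen, as were Sh3bp2, Lat2, Stap1, Lcp2, Dok2, Gab2 and Grap. Certain genes of the lists are not reported here and were left out of the list counts and the kinase sum.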

Additional observations from a re-analysis of the deposited data

Results flagged for a closer look

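In 4 cases 1 library lay far from the rest of its group by Dixon's test, among 23 groups of libraries examined. For normally spread values chance flags about 1 in 20 groups. Some values here rest on few counts, where that rate need not hold, so no excess is read from the 4 cases. Fyn had 2.81 CPM (7 counts) in EpCAM 1, where the other EpCAM libraries had 0 to 0.539 CPM. Matk had 5.93 CPM (22 counts) in EpCAM 7, where the other EpCAM libraries had 0 to 1.27 CPM. Fgr had 0.544 CPM in brush 5, which is 1 count, where the other brush libraries had 0 to 0.181 CPM. Btk had 28.7 CPM (10 counts) in CD45 1, the library with the lowest total, where the other CD45 libraries had 110 to 120 CPM.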

How the results depend on the processing

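The fitted log2 fold changes of Lyn, Fyn, Bmx, Tec, Syk and Matk kept their sign under every alternative run; Fgr and Btk, with 0 to 3 counts in the epithelial groups, were not among them. Beyond the values given above, Matk over EpCAM was 8.97 with voom. The receptor calls against EpCAM, 10 higher and 3 lower, were 3 and 1 in a fit on the 2 groups alone, which tested fewer of the genes, and 1 lower with a 10 CPM minimum or voom. The regulators called lower against EpCAM were 5, and 3 with RSEM counts, 1 in a fit on the 2 groups alone and 3 with voom. The length differences in medians were -173 bases for Lyn and -223 bases for Bmx. Leaving out 1 library at a time gave 3 to 5 other kinases lower, 1 to 3 receptors lower and 3 to 6 regulators lower against EpCAM, and length differences of -299 to -135 bases for Lyn and -742 to -526 bases for Tec over CD45. The receptor count was 1 without any one of brush 1, 3, 6 or 7 or EpCAM 6 or 7, the regulator count 3 without brush 7, EpCAM 3 or EpCAM 6, and the kinase count 5 without EpCAM 5; the cause was not tested.

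Libraries with the same number correlated at -0.069 to 0.235 (brush and EpCAM) and -0.198 to 0.101 (brush and CD45), and 2 of 7 brush libraries matched their own EpCAM number best. For EpCAM and CD45 libraries the values were -0.18 to 0.263, and EpCAM 2 matched CD45 2 best. Such correlations cannot show whether libraries came from the same mice. With the replicate number as a block, the other kinases gave 4 higher and 4 lower over EpCAM and 6 and 8 over CD45. Calls over CD45 were lost with the block, among them those of Jak2 (edgeR adjusted p = 0.0988) and Ptpn6 (edgeR adjusted p = 0.0625). Leaving out ribosomal RNA genes moved the median log2 fold change of all genes to -0.11 over CD45, against 0.05 with them, and to -0.15 over EpCAM, against -0.06. CD45 1, with the fewest counts, limits low genes most.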
